A study of Homo sapiens with 8 samples.

Results

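The genes described here are MYC and 37 factors that build ribosomes, chosen by name and function, with earlier results of these data known. All 38 were among the 27945 genes with deposited values, and all 38 passed the filter for testing, which 13789 genes passed (2 or more libraries at or above 0.5 FPKM). FPKM are reads scaled to the length of the transcript and the total of the library. They were measured by sequencing of total RNA depleted of rRNA in EA.hy926, a hybrid line of umbilical vein endothelium and a lung carcinoma line, grown in high-glucose DMEM with serum. The groups were 2 control libraries, 3 clonal lines in which CRISPR/Cas9 had removed the endothelial enhancer E2 (ΔE2), and 3 clonal lines without SE12313-b (ΔSE12313-b), a nearby part of the same super-enhancer that had shown no activity in the reporter assays of the study. Each deletion library is 1 clone, and the sources do not say whether the clones of a deletion descend from separate edited cells. The genotype label of the control libraries is "Control", their description carries the word for clones too, and the paper mentions gRNA-treated controls grown alongside the clones only for a growth assay. Hence each comparison with control sets clones against cells whose handling is not fully known, and p values measure the spread between these libraries.

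Ribosomes are made in the nucleolus, where RNA polymerase I copies the rRNA genes into a long precursor. Small nucleolar RNPs (snoRNPs) then modify the precursor, and a large set of assembly factors folds and cleaves it into the RNAs of the small and the large subunit. MYC is a transcription factor that pairs with MAX and binds the sequence CACGTG, the E-box, and genes of ribosome biogenesis are among its best known targets. In dividing cells these genes are generally expressed at a higher level than in resting cells.

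Because the E-box is the sequence that MYC and MAX bind, it was counted in the promoters of the group. RefSeq promoter windows (GRCh38.p14, 250 bases before to 50 bases after the transcription start) were given for 29 of the 38 genes, and 11 of these 29 (37.9%) held at least 1 CACGTG, which reads the same on both strands and overlaps no other motif counted. Among the other protein-coding genes tested, 969 of 9257 windows (10.5%) held it, and among all the windows given it was 2030 of 27305 (7.43%). The windows of the group had a median of 25 CG dinucleotides and those of the other coding genes 26. In 3 of the 11 genes a CACGTG lay wholly before the start, against 860 of the 969 others, so in most of the 11 genes the motif lay at or after the start. Some of these windows are shown 5′ to 3′, with the CACGTG in capitals and 12 bases on each side. They come from a member of the C/D snoRNPs (FBL), 1 of the H/ACA snoRNPs (NOP10, the copy closer to the start), 3 small subunit factors (UTP20, UTP4, WDR43), 1 large subunit factor (PES1) and 1 gene that fell in ΔE2 (MYBBP1A).
FBL: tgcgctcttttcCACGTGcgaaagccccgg
NOP10: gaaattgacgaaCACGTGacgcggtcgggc
UTP20: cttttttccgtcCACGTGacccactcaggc
UTP4: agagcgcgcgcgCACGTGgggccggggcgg
WDR43: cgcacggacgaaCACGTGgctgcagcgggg
PES1: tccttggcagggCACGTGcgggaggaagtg
MYBBP1A: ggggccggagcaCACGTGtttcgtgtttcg
These windows are at chr19:39846356-39846385 (minus strand), chr15:34343130-34343159 (minus), chr12:101280083-101280112 (plus), chr16:69132621-69132650 (plus), chr2:28894658-28894687 (plus), chr22:30591880-30591909 (minus) and chr17:4555340-4555369 (minus) of GRCh38.p14. A CACGTG stood in 9 of the 20 windows of genes that rose in ΔE2, in 1 of the 7 of genes not called there and in 1 of the 2 of genes that fell. In ΔSE12313-b it stood in 10 of the 24 windows of genes that rose, 1 of the 4 not called and 0 of 1 that fell. This is a description from few genes. A match of letters is not a bound site, and other factors bind the same motif.

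The libraries held 12067558 and 12696176 reads in the controls, 13616466 to 19101146 in ΔE2 and 14814170 to 16085529 in ΔSE12313-b. Of these reads, 58.2% and 58.7% lay on protein-coding genes in the controls, 66.5 to 69.9% in ΔE2 and 72.1 to 75.1% in ΔSE12313-b. The scale of the FPKM does not correct for this share, and the median of all genes tested lay at 0.14 on the log2 scale in ΔE2 and at 0.27 in ΔSE12313-b, so changes are read against these medians, and counts of rises and falls are also given for libraries centred on their own median. Between the controls the counts differed by a chi-square of 1.18 per degree of freedom (1 is sampling noise alone), against 3.83 to 21.7 between clones of a deletion, so the control libraries differed far less than the clones did. Every member had at least 70 reads in every library. The endothelial genes CDH5, TIE1 and ENG were expressed in all 8 libraries, CLDN5 was at 0 in all of them, and VWF and KDR stayed at or below 2.02 and 0.29 FPKM.

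Most of the ribosome biogenesis factors had a higher RNA level in the clones of both deletions than in the controls, while MYC itself passed the test in neither deletion. In ΔE2, 24 of the 38 genes rose, 2 fell and 12 were not called (limma on log2(FPKM + 0.1), adjusted p under 0.05), where 34.7% of all genes tested rose and 19.4% fell. In ΔSE12313-b, 32 rose, 1 fell and 5 were not called, where 43% of all genes rose and 16.4% fell. The median change of the 38 genes was 0.47 on the log2 scale in ΔE2 and 0.65 in ΔSE12313-b, and 31 and 32 of them lay above the median of all genes. The rises were mostly under 2-fold. In ΔE2, 4 genes rose by at least 2-fold (POLR1E, NOP56, NOP58 and UTP20), where 11.2% of all genes did, and in ΔSE12313-b the same genes and BOP1 did (5 genes, all genes 14.7%). None of the members fell by 2-fold, while 8.36% of all genes did in ΔE2 and 7.83% in ΔSE12313-b. The 24 genes that rose in ΔE2 all rose in ΔSE12313-b too, 8 more rose there, RRN3 and MYBBP1A fell in ΔE2 and GAR1 in ΔSE12313-b, and MYC, NOB1 and GNL3 were called in neither. Both comparisons share the control libraries.

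The size of these counts depended on the scale. With each library centred, 18 genes rose and 2 fell in ΔE2 (26.6% and 26.1% of all genes) and 20 rose and 2 fell in ΔSE12313-b (27.7% and 27.3%). With quantile normalization 14 rose and 2 fell in ΔE2 (26% and 27.3%), and 13 rose and 5 fell in ΔSE12313-b (27.8% and 27.3%). When each library was centred within each chromosome arm, a step chosen after the values were seen, 18 rose and 1 fell in ΔE2 (24.8% and 28.4%), and 19 rose and 1 fell in ΔSE12313-b (24.4% and 29.2%). The 5 falls with quantile normalization were RRN3 (-0.27), MYBBP1A (-0.49), GAR1 (-0.83), NOB1 (-0.40) and GNL3 (-0.33). Under all 4 other scalings, these 3 and scaling to the reads on coding genes, 5 genes lost their call in ΔE2 (NCL, LYAR, RRP9, HEATR1 and BYSL) and 10 in ΔSE12313-b (POLR1B, DDX21, LYAR, RRP12, HEATR1, BYSL, NOP2, WDR12, RRP1B and RRS1). Over 21 refits (other scales, filters and models, and each library left out in turn) 14 of the 24 rises in ΔE2 and 13 of the 32 in ΔSE12313-b kept their call each time, and 10 genes did so in both: POLR1A, POLR1E, UBTF, NPM1, FBL, NOP56, NOP58, NHP2, UTP20 and NOP16.

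**Figure D1:**
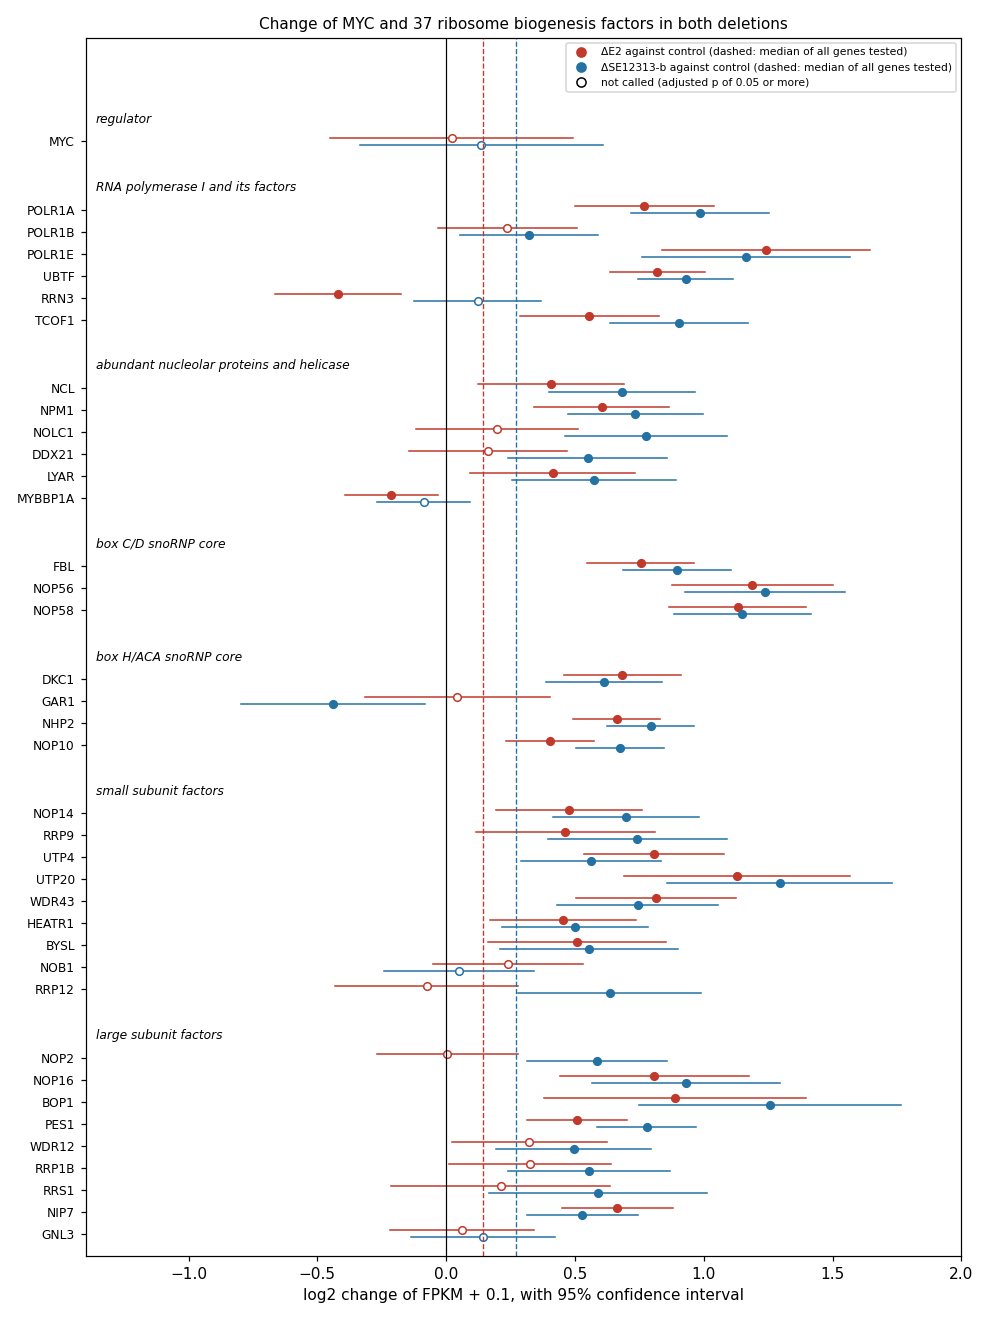
Log2 change of FPKM + 0.1 (horizontal axis, bars are 95% confidence intervals) of MYC and 37 ribosome biogenesis factors (rows, by role) in ΔE2 (red) and ΔSE12313-b (blue) against control, with open circles for genes not called. Most points lie to the right of the dashed medians of all genes tested (0.14 and 0.27), while MYC, RRN3, MYBBP1A, GAR1 and GNL3 lie to the left of the median in both deletions, RRP12 and NOP2 in ΔE2 and NOB1 in ΔSE12313-b.

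Marker genes of the dividing cell moved by larger amounts than the genes described here. All 42 genes of a list of S phase markers rose in both deletions (median log2 change 2.74 in ΔE2 and 2.91 in ΔSE12313-b), as did 52 and 51 of 52 G2/M markers (3.99 and 3.91). Their summed FPKM went from 250 and 251 (S phase) and from 344 and 354 (G2/M) in the controls to 1204 to 1507 and 1904 to 2428 in the clones. These RNA levels do not measure growth. In its growth and cell cycle assays the paper reports reduced proliferation and fewer S phase cells in clones of both deletions than in control cells. Of 8 epithelial markers, KRT7, KRT8 and KRT18 passed the filter and rose in both deletions, the sum of the list was 361 and 363 FPKM in the controls and 811 to 1210.1 in the clones, and CDH1 was at 0 in all libraries. The 14 endothelial markers summed to 414 FPKM in both controls and to 437 to 661 in the clones, but single markers moved both ways. Of the 12 that passed the filter, 6 rose and 3 fell in ΔE2, and 5 rose and 1 fell in ΔSE12313-b. Among all genes, 34.7% rose and 19.4% fell in ΔE2, and 43% rose and 16.4% fell in ΔSE12313-b. Fibroblast markers summed to at most 0.19, and the 6 leukocyte markers to 28.4 and 30.3 in the controls and 25.04 to 40.9 in the clones. CD68 made up most of the leukocyte sum (24.3 to 40.4 FPKM), LYZ reached 2.67, CD3E was at 0 and PTPRC at most at 0.012. The part of these shifts in the changes of ribosome biogenesis genes was not tested, and in RNA of whole cultures fewer cells of a kind and less RNA per cell cannot be told apart.

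MYC (8q24.21) did not differ from the controls by more than the spread between clones. It was at 38.01 and 39.3 FPKM (controls), 46.9, 29.4 and 43.7 (ΔE2) and 50.1, 41.4 and 36.9 (ΔSE12313-b), so both deletions had clones above and below the controls. The log2 change was 0.02 ± 0.20 (SE, adjusted p = 0.939) in ΔE2 and 0.14 ± 0.20 (SE, adjusted p = 0.587) in ΔSE12313-b, and the 95% confidence intervals, from -0.45 to 0.49 and from -0.34 to 0.61, leave room for a change of either sign. Over 21 refits the change in ΔE2 lay between -0.32 and 0.23 and that in ΔSE12313-b between -0.35 and 0.24, with no call in any. MYC protein was not measured. CASC11, a lncRNA on the opposite strand, shares 3.18% of the exonic bases of MYC.

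The 6 genes of the group that belong to RNA polymerase I or its factors rose in both deletions, except RRN3 and, in ΔE2, POLR1B. Other components of the polymerase moved both ways and are given below. The median change of the 6 genes was 0.66 in ΔE2 (4 rose, 1 fell) and 0.92 in ΔSE12313-b (5 rose), where 34.7% and 43% of all genes rose. With each library centred 4 rose in both deletions and 1 fell in ΔE2, where 26.6% and 27.7% of all genes rose. POLR1E, a subunit of the polymerase that helps it to start and elongate, had the lowest level of the group in the controls and rose the most of these genes (chr9:37485932-37503694, GRCh37, plus strand). It was at 3.23 and 3.13 FPKM (controls), 7.91, 6.46 and 8.79 (ΔE2) and 8.62, 7.36 and 6.01 (ΔSE12313-b), with no overlap between clones and controls. Its change was 1.24 ± 0.17 (SE, adjusted p = 0.00066) in ΔE2 and 1.16 ± 0.17 (SE, adjusted p = 0.000748) in ΔSE12313-b, 2.37-fold and 2.24-fold. POLR1A, the largest subunit, was at 6.18 and 6.13 FPKM (controls), 10.6, 9.68 and 11.4 (ΔE2) and 12.8, 13.4 and 10.8 (ΔSE12313-b). Every clone lay above both controls, and the rise was 0.77 ± 0.12 (SE, adjusted p = 0.000946) in ΔE2 and 0.98 ± 0.12 (SE, adjusted p = 0.000214) in ΔSE12313-b. UBTF, which opens the rRNA genes and recruits the polymerase, was at 9.18 and 9.79 FPKM (controls), 16.7, 16.1 and 17.7 (ΔE2) and 18.3, 17.3 and 18.9 (ΔSE12313-b). Its clones lay close together, and it rose by 0.82 ± 0.08 (SE, adjusted p = 0.000104) and 0.93 ± 0.08 (SE, adjusted p = 4.3e-05).

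TCOF1, the treacle protein that links UBTF and the polymerase and is mutated in Treacher Collins syndrome, was at 14.99 and 14.96 FPKM (controls), 24.2, 19.1 and 23.2 (ΔE2) and 30.9, 27.2 and 26.4 (ΔSE12313-b). It rose in both deletions (0.56, adjusted p = 0.00472, and 0.90, adjusted p = 0.00034), less in ΔE2, whose 3 clones lay below the 3 of ΔSE12313-b. POLR1B, the second largest subunit, was at 9.39 and 9.99 FPKM (controls), 12.2, 9.97 and 12.3 (ΔE2) and 12.8, 12.6 and 11.1 (ΔSE12313-b). It passed the test in ΔSE12313-b (log2 0.32, SE 0.12, adjusted p = 0.043) and not in ΔE2 (log2 0.24, SE 0.12, adjusted p = 0.118), but its rise in ΔSE12313-b was close to the median of all genes and turned to -0.021 with quantile normalization. The call was lost without either control, clone 1 or 3 of ΔE2, or clone 1 or 2 of ΔSE12313-b (adjusted p 0.0512 to 0.194). RRN3 (chr16:15153879-15188192, GRCh37, minus strand), the factor that brings the polymerase to its promoter, was at 14.8 and 14.8 FPKM (controls), 10.7, 10.4 and 12.1 (ΔE2) and 18.04, 15.7 and 14.8 (ΔSE12313-b). The 3 clones of ΔE2 lay below all other libraries, and it fell by 0.42 on the log2 scale there (SE 0.11, adjusted p = 0.0113), while its change in ΔSE12313-b was 0.12 ± 0.11 (SE, adjusted p = 0.348). The call in ΔE2 was lost without control 1 (adjusted p = 0.0626) or control 2 (0.0643). Genes of its chromosome arm, 16p, had a median of -0.42 relative to all arms in ΔE2, and centred within arms the change of RRN3 was -0.21 (adjusted p = 0.0863). The table lists its copies RRN3P1, RRN3P2 and RRN3P3 too, so its reads may be split among them.

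Of the 6 abundant nucleolar proteins 3 rose and 1 fell in ΔE2 and 5 rose in ΔSE12313-b, where 34.7% and 43% of all genes rose. With each library centred 1 rose and 1 fell in ΔE2, where 26.6% of all genes rose and 26.1% fell. Centred in ΔSE12313-b, 3 rose and 1 fell, where 27.7% of all genes rose and 27.3% fell. NPM1 and NCL had the highest levels of the group. NPM1, which carries ribosomal subunits and histones, was at 309 and 327 FPKM (controls), 504, 418 and 535 (ΔE2) and 561, 508 and 518 (ΔSE12313-b), and is known for many processed pseudogenes, which can share its reads. It rose by 0.60 ± 0.11 (SE, adjusted p = 0.00277) in ΔE2 and 0.73 ± 0.11 (SE, adjusted p = 0.000863) in ΔSE12313-b, with every clone above the controls. NCL, which binds pre-rRNA and chromatin of the rRNA genes, was at 165 and 164 FPKM (controls), 247, 189 and 222 (ΔE2) and 256, 246 and 292 (ΔSE12313-b). It rose by 0.41 ± 0.12 (SE, adjusted p = 0.0236) and 0.68 ± 0.12 (SE, adjusted p = 0.00189), but in ΔE2 the change was -0.061 with quantile normalization and the call was lost without either control or without clone 1 or 3 (adjusted p 0.0602 to 0.107). MYBBP1A, a nucleolar protein that represses transcription in several settings, was at 19.4 and 18.7 FPKM (controls), 16.9, 16.4 and 16.02 (ΔE2) and 19.1, 18.02 and 16.8 (ΔSE12313-b). It fell slightly in ΔE2 (-0.21, adjusted p = 0.0481) and had -0.09 in ΔSE12313-b (adjusted p = 0.363). With each library centred it fell in ΔSE12313-b too (-0.38, adjusted p = 0.00515). Its fall in ΔE2 was lost without any 1 of 6 libraries, either control, any ΔE2 clone or clone 2 of ΔSE12313-b (adjusted p 0.0619 to 0.204).

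NOLC1 and DDX21, both on 10q, rose in ΔSE12313-b and were not called in ΔE2. NOLC1, a chaperone of snoRNPs that also binds the polymerase, was at 33.98 and 34.5 FPKM (controls), 44.8, 32.4 and 41.7 (ΔE2) and 63.3, 58.9 and 54.2 (ΔSE12313-b). DDX21, an RNA helicase of the nucleolus, was at 45.6 and 45.04 FPKM (controls), 53.0, 43.2 and 57.1 (ΔE2) and 72.7, 68.6 and 58.8 (ΔSE12313-b). For both, the clones of ΔSE12313-b lay above all other libraries and those of ΔE2 straddled the controls. NOLC1 rose in ΔSE12313-b by 0.78 ± 0.14 (SE, adjusted p = 0.00168) and had 0.20 ± 0.14 (SE, adjusted p = 0.254) in ΔE2, and DDX21 rose by 0.55 ± 0.13 (SE, adjusted p = 0.00814) and had 0.16 ± 0.13 (SE, adjusted p = 0.333). Genes of 10q had a median of 0.44 relative to all arms in ΔSE12313-b, and within the arm NOLC1 stood at percentile 48.8 there and DDX21 at 35.3. Without clone 2 of ΔE2, NOLC1 passed the test in ΔE2 too (0.34, adjusted p = 0.0177), and without control 2 DDX21 missed it in ΔSE12313-b (0.54, adjusted p = 0.0524). LYAR, a nucleolar zinc finger protein, rose by 0.41 and 0.57, a call that was lost in ΔE2 without either control or clone 1 or 3 (adjusted p 0.0724 to 0.139) and in ΔSE12313-b without control 2. Centred, the changes of LYAR were 0.26 and 0.29 (adjusted p = 0.175 and 0.128), and that of DDX21 in ΔSE12313-b was 0.26 (adjusted p = 0.128).

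The core proteins of the box C/D snoRNPs, which guide the methylation of rRNA, rose together in both deletions. NOP56 (chr20:2633178-2639039, GRCh37, plus strand) was at 45.9 and 51.4 FPKM (controls), 124, 92.1 and 119.9 (ΔE2) and 123, 114 and 107 (ΔSE12313-b). It rose 2.28-fold in ΔE2 (log2 1.19, SE 0.13, adjusted p = 0.000222) and 2.36-fold in ΔSE12313-b (log2 1.24, SE 0.13, adjusted p = 0.00014). Its partner NOP58 (chr2:203130439-203168384, GRCh37, plus strand) was at 23.3 and 22.7 FPKM (controls), 55.9, 43.2 and 53.2 (ΔE2) and 52.7, 47.7 and 53.04 (ΔSE12313-b). It rose 2.19-fold (log2 1.13, SE 0.11, adjusted p = 0.000128) and 2.22-fold (log2 1.15, SE 0.11, adjusted p = 9.15e-05). Both of these paired proteins had non-overlapping levels between clones and controls. FBL, the methyltransferase of the particle, was at 54.9 and 57.9 FPKM (controls), 100.2, 86.9 and 99.2 (ΔE2) and 112, 98.6 and 104 (ΔSE12313-b). It rose by 0.75 ± 0.09 (SE, adjusted p = 0.000294) and 0.90 ± 0.09 (SE, adjusted p = 9.61e-05), and all clones of the 3 genes lay above both controls. The level of NOP58 was 44.2 and 50.7% of that of NOP56 in the controls, 44.4 to 46.9% in ΔE2 and 41.6 to 49.4% in ΔSE12313-b, ranges that overlap. The calls of the 3 genes were kept in every refit. NOP56 and NOP58 carry snoRNAs in their introns (SNORD86, SNORD110 and SNORA51 in NOP56, SNORD70 in NOP58), each of which shares at most 2.06% of the exonic bases of its host.

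**Figure D2:**
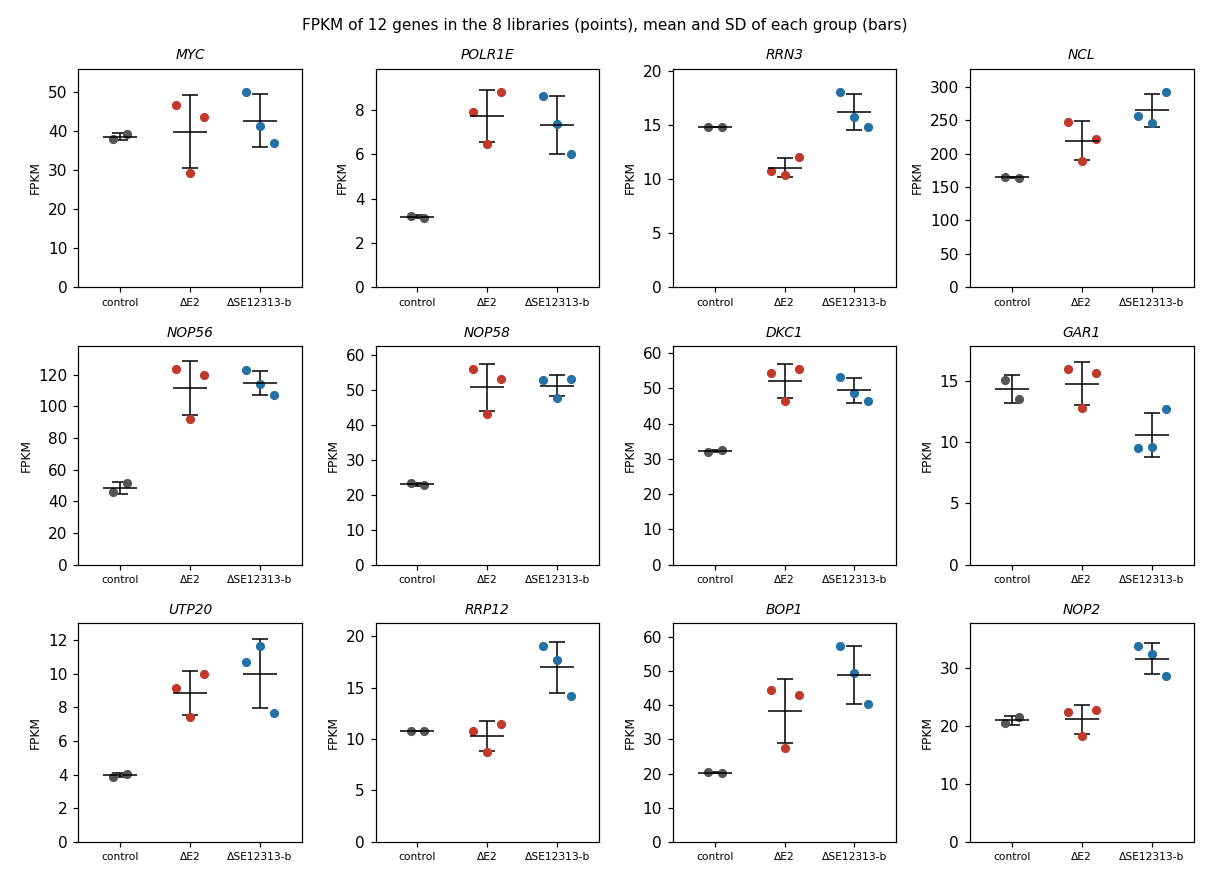
FPKM (vertical axis, from 0) of 12 genes in the 8 libraries (points), with the mean and SD of each group in black. NOP56, NOP58, POLR1E and UTP20 of all clones lie above both controls, MYC overlaps between groups, RRN3 is lower in the ΔE2 clones, and GAR1 is lower in the ΔSE12313-b clones.

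The box H/ACA snoRNPs convert uridine of rRNA to pseudouridine. In both deletions 3 of their 4 core proteins rose, while GAR1 did not, where 34.7% and 43% of all genes rose. These counts were the same with each library centred, where 26.6% and 27.7% of all genes rose. DKC1, the pseudouridine synthase and the gene of X-linked dyskeratosis congenita, was at 31.98 and 32.5 FPKM (controls), 54.3, 46.4 and 55.4 (ΔE2) and 53.3, 48.6 and 46.4 (ΔSE12313-b). It rose by 0.68 ± 0.10 (SE, adjusted p = 0.000711) in ΔE2 and 0.61 ± 0.10 (SE, adjusted p = 0.00103) in ΔSE12313-b. NHP2 was at 26.3 and 26.9 FPKM (controls), 44.1, 39.2 and 43.3 (ΔE2) and 47.1, 44.9 and 46.6 (ΔSE12313-b) and rose by 0.66 ± 0.07 (SE, adjusted p = 0.000194) and 0.79 ± 0.07 (SE, adjusted p = 5.96e-05). NOP10 was at 80.1 and 73.5 FPKM (controls), 103, 95.9 and 106 (ΔE2) and 119, 126 and 123 (ΔSE12313-b) and rose by 0.40 ± 0.07 (SE, adjusted p = 0.00258) and 0.68 ± 0.07 (SE, adjusted p = 0.00015). For these 3 genes every clone lay above both controls. The call of NOP10 in ΔE2 was lost with quantile normalization (0.03), per read on coding genes (0.18) and within arms (0.20). In ΔSE12313-b, NOP10 lost its call with quantile normalization (0.17), and DKC1 with quantile normalization (0.14) and within arms (0.27). NHP2 shares 28% of its exonic bases with RMND5B on the opposite strand, and whether the counting used the strand is not given in the sources used here.

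GAR1 (chr4:110736666-110745893, GRCh37, plus strand), which completes the mature H/ACA particle, was at 15.1 and 13.5 FPKM (controls), 15.98, 12.8 and 15.7 (ΔE2) and 9.52, 9.60 and 12.7 (ΔSE12313-b). The ΔE2 clones overlapped the controls (log2 0.04, SE 0.15, adjusted p = 0.83), and the ΔSE12313-b clones lay below them. It fell by 0.44 on the log2 scale in ΔSE12313-b (SE 0.15, adjusted p = 0.0387), a call that was lost without either control, without clone 3 of ΔE2 and without clone 1 or 2 of ΔSE12313-b (adjusted p 0.0541 to 0.2). Relative to its partner, GAR1 was at 47.3 and 41.5% of DKC1 in the controls, 29.4, 27.6 and 28.2% in ΔE2, and 17.9, 19.7 and 27.4% in ΔSE12313-b. The ratio was taken within each library and formed after the values were seen. A factor common to all genes of a library leaves it unchanged, but quantile normalization and centring within arms do not. All 6 clones lay below both controls in this ratio. NHP2 was at 82.2 and 82.6% of DKC1 in the controls, 78.1 to 84.4% in ΔE2 and 88.4 to 100.4% in ΔSE12313-b. NOP10 was at 250.5 and 226% of DKC1 in the controls, 189 to 207% in ΔE2, where all 3 clones lay below both controls too, and 223 to 265% in ΔSE12313-b. Genes of 4q, the arm of GAR1, had a median of 0.11 relative to all arms in ΔE2 and of -0.22 in ΔSE12313-b. Within that arm GAR1 stood at percentile 31.3 in ΔE2 and 27.2 in ΔSE12313-b.

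Among the 9 factors of the small subunit, 7 rose in ΔE2 (median 0.48, all genes 34.7% higher) and 8 in ΔSE12313-b (0.63, all genes 43%). After centring each library, 3 and 4 of the 9 rose, where 26.6% and 27.7% of all genes did. UTP20, a scaffold of the processome that cleaves the precursor at its 5′ end, was at 3.88 and 4.05 FPKM (controls), 9.13, 7.46 and 9.98 (ΔE2) and 10.7, 11.6 and 7.70 (ΔSE12313-b). It rose 2.19-fold in ΔE2 (log2 1.13, SE 0.19, adjusted p = 0.00158) and 2.45-fold in ΔSE12313-b (log2 1.29, SE 0.19, adjusted p = 0.000651), the largest rise of a member there. WDR43 and UTP4, both of the complex that binds the precursor early, rose in both deletions. WDR43 was at 17.6 and 19.3 FPKM (controls), 34.8, 27.5 and 35.8 (ΔE2) and 32.9, 32.6 and 27.5 (ΔSE12313-b). UTP4 was at 18.8 and 19.5 FPKM (controls), 31.9, 30.7 and 38.7 (ΔE2) and 29.2, 30.4 and 25.7 (ΔSE12313-b). WDR43 rose by 0.81 ± 0.13 (SE, adjusted p = 0.00148) and 0.74 ± 0.13 (SE, adjusted p = 0.00195), and UTP4 by 0.81 ± 0.12 (SE, adjusted p = 0.000799) and 0.56 ± 0.12 (SE, adjusted p = 0.00409). UTP4 lies on 16q, the arm that holds both deletions, whose genes had a median of -0.31 relative to all arms in ΔSE12313-b. Its call in ΔSE12313-b was lost with each library centred (0.27, adjusted p = 0.0699), with quantile normalization (0.14) and per read on coding genes (0.22). Centred within arms it was kept (0.53, adjusted p = 0.00327).

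RRP12, an export and maturation factor on 10q, was at 10.8 and 10.8 FPKM (controls), 10.8, 8.70 and 11.5 (ΔE2) and 19.004, 17.7 and 14.1 (ΔSE12313-b). The ΔE2 clones lay around the controls (log2 -0.08, SE 0.15, adjusted p = 0.7) and the ΔSE12313-b clones above them (log2 0.63, SE 0.15, adjusted p = 0.00821). Within 10q it stood at percentile 40 of the changes in ΔSE12313-b, and centred within arms its change there was -0.13 (adjusted p = 0.492). NOP14, RRP9, HEATR1 and BYSL rose in both deletions, by 0.45 to 0.51 in ΔE2 and 0.50 to 0.74 in ΔSE12313-b. Their calls in ΔE2 were the less stable ones of the role: all 4 were lost without control 1 (adjusted p 0.0963 to 0.148), as were those of HEATR1 and BYSL in ΔSE12313-b (0.064 and 0.104), and RRP9, HEATR1 and BYSL in ΔE2 also without other libraries. Centred, none of the 4 was called in ΔE2 (0.30 to 0.35, adjusted p 0.0568 to 0.129), nor HEATR1 and BYSL in ΔSE12313-b (0.21 and 0.27). NOB1, the nuclease that makes the last cut of the small subunit RNA, was called in neither deletion (0.24, adjusted p = 0.142, and 0.05, adjusted p = 0.755), with its 3 ΔE2 clones above the controls. HEATR1, NOP14 and NOB1 share between 20.4 and 23.1% of their exonic bases with genes on the opposite strand.

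Among the 9 factors of the large subunit, 4 rose in ΔE2 (median 0.32), a share near the 34.7% of all genes, and 8 in ΔSE12313-b (0.59, all genes 43%). After such centring, 4 rose in ΔE2 and 3 in ΔSE12313-b, where 26.6% and 27.7% of all genes did. BOP1, PES1 and WDR12 form a complex that matures the large subunit RNA. BOP1 was at 20.3 and 20.1 FPKM (controls), 44.6, 27.5 and 42.9 (ΔE2) and 57.2, 49.3 and 40.2 (ΔSE12313-b). PES1 was at 24.02 and 24.1 FPKM (controls), 35.6, 31.04 and 36.2 (ΔE2) and 42.9, 40.6 and 40.5 (ΔSE12313-b). WDR12 was at 13.8 and 12.8 FPKM (controls), 16.4, 15.5 and 17.98 (ΔE2) and 20.6, 20.3 and 15.7 (ΔSE12313-b). All clones of the 3 genes lay above the controls. BOP1 rose by 0.89 ± 0.22 (SE, adjusted p = 0.0103) in ΔE2 and 1.26 ± 0.22 (SE, adjusted p = 0.00167) in ΔSE12313-b, PES1 by 0.51 ± 0.08 (SE, adjusted p = 0.00143) and 0.78 ± 0.08 (SE, adjusted p = 0.000131), and WDR12 had 0.32 ± 0.13 (SE, adjusted p = 0.0683) in ΔE2 and rose by 0.49 ± 0.13 (SE, adjusted p = 0.0118) in ΔSE12313-b. BOP1 stood at 84.5 and 83.5% of PES1 in the controls and at 88.6 to 133% in the clones, a ratio formed after the values were seen. The call of BOP1 in ΔE2 was lost without control 1 (0.90, adjusted p = 0.059) or control 2 (0.88, adjusted p = 0.0618). WDR12 was called in ΔE2 without clone 3 of ΔSE12313-b (adjusted p = 0.0167) and lost its call in ΔSE12313-b without control 2 (0.0844) and with each library centred (0.21, adjusted p = 0.205).

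NOP16, a nucleolar factor of the large subunit, was at 5.21 and 5.96 FPKM (controls), 11.6, 7.92 and 10.4 (ΔE2) and 10.4, 11.5 and 10.2 (ΔSE12313-b), and rose by 0.81 ± 0.16 (SE, adjusted p = 0.00344) and 0.93 ± 0.16 (SE, adjusted p = 0.00143). NIP7 rose by 0.66 (adjusted p = 0.000655) and 0.53 (0.00172), and its call in ΔSE12313-b was lost with each library centred (0.24, adjusted p = 0.0562), with quantile normalization (0.12) and per read on coding genes (0.19). NIP7 lies on 16q, and centred within arms that call was kept (0.50, adjusted p = 0.0018). NOP2, a methyltransferase of the large subunit RNA, was at 20.5 and 21.5 FPKM (controls), 22.5, 18.2 and 22.8 (ΔE2) and 33.8, 32.4 and 28.6 (ΔSE12313-b). Its ΔE2 clones surrounded the controls (log2 0.00, SE 0.12, adjusted p = 0.976), and its ΔSE12313-b clones lay above all other libraries (log2 0.59, SE 0.12, adjusted p = 0.00337). That call was lost under the 4 other scalings, with changes of 0.30 (each library centred, adjusted p = 0.0644), 0.24 (reads on coding genes), 0.19 (within arms) and 0.15 (quantile normalization). RRP1B was at 11.996 and 12.1 FPKM (controls), 16.3, 12.9 and 16.5 (ΔE2) and 19.5, 18.5 and 15.6 (ΔSE12313-b). RRS1 was at 22.2 and 24.6 FPKM (controls), 33.8, 20.5 and 28.5 (ΔE2) and 36.98, 34.05 and 34.8 (ΔSE12313-b). Both were called in ΔSE12313-b and not in ΔE2. RRP1B rose by 0.55 ± 0.14 (SE, adjusted p = 0.00861) in ΔSE12313-b and had 0.32 ± 0.14 (SE, adjusted p = 0.0762) in ΔE2. RRS1 rose by 0.59 ± 0.18 (SE, adjusted p = 0.0239) in ΔSE12313-b and had 0.21 ± 0.18 (SE, adjusted p = 0.361) in ΔE2. Without clone 2 of ΔE2 both were called there too (0.44, adjusted p = 0.0153, and 0.41, adjusted p = 0.0143), and in ΔSE12313-b RRP1B lost its call without control 1 (0.0536) and RRS1 without either control or clone 1 (0.0652 to 0.134). Centred, the changes in ΔSE12313-b were 0.27 for RRP1B (adjusted p = 0.134) and 0.30 for RRS1 (0.208). GNL3, or nucleostemin, was at levels of 36.5 to 37.8 FPKM in the controls and 33.4 to 45.1 in the clones and was called in neither. NOP2 shares 59.0% of its exonic bases with an overlapping gene model on its own strand, so its reads cannot be assigned to it alone.

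The clones of a deletion differed among themselves, and in each deletion 1 clone was the lowest for most of the group. Clone 2 of ΔE2 was the lowest of its 3 clones for 37 of the 38 genes, with a median log2 ratio to the controls of 0.31 against 0.58 in both other clones. Clone 3 of ΔSE12313-b was the lowest for 27 genes, with a median of 0.57 against 0.67 and 0.70. The share of all genes for which these clones were the lowest was not counted. The medians over all genes tested were 0.12, 0.15 and 0.17 in the ΔE2 clones and 0.27 to 0.29 in those of ΔSE12313-b, so these clones were not low over all genes. Clone 2 of ΔE2 was also the lowest of its group in the summed S phase markers (1204 FPKM against 1387 and 1507) and G2/M markers (1904 against 2280.0 and 2407). Clone 3 of ΔSE12313-b was the lowest in G2/M markers (2078 against 2301 and 2428) but not in S phase markers (1351 against 1346 and 1452). Both clones had the highest endothelial sum of their deletion, 661 FPKM against 457 and 503 in ΔE2 and 601 against 495 and 437 in ΔSE12313-b. The part of these markers in the lower levels of both clones was not tested. The 3 members of 8q, MYC, BOP1 and RRS1, had the largest coefficients of variation in ΔE2 (23.3, 24.5 and 24.2%), and the largest of any other member was 18.7% (NOP16). Genes of 8q as a whole had medians of -0.10, -0.09 and -0.09 relative to all arms in the 3 clones. Without clone 2, 28 of the 38 genes rose in ΔE2.

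**Figure D3:**
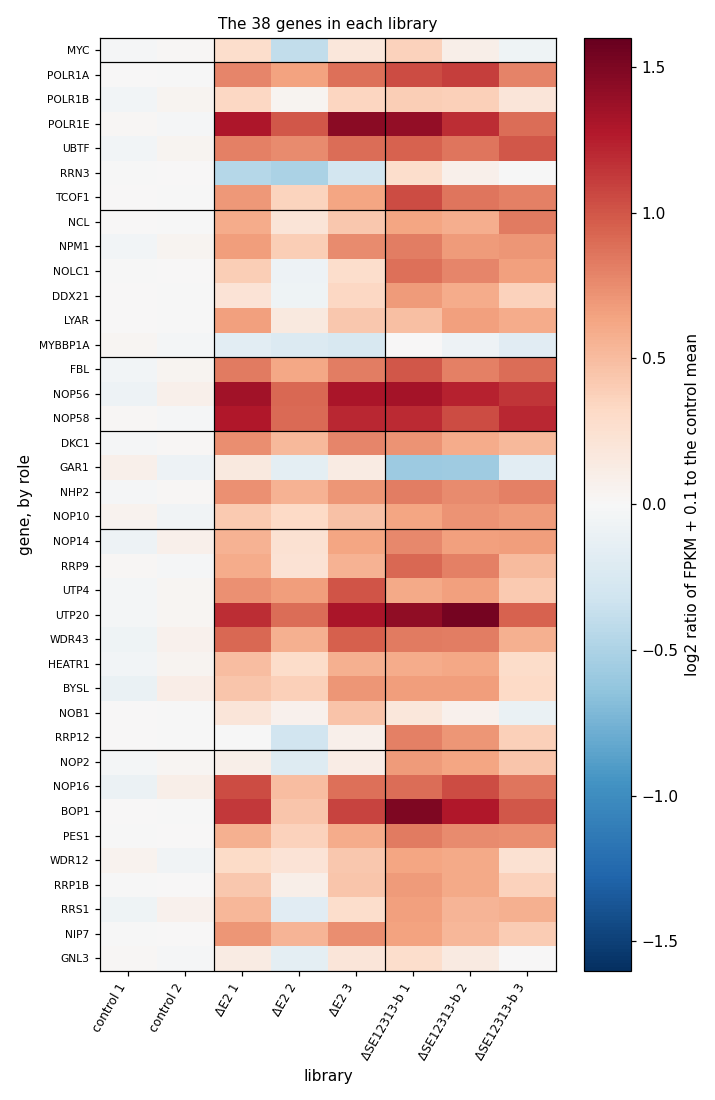
Log2 ratio of FPKM + 0.1 to the control mean (colour, red is higher) of the 38 genes (rows, by role) in the 8 libraries (columns). The column of ΔE2 clone 2 is paler than those of clones 1 and 3, with a median of 0.31 against 0.58, and RRN3 in ΔE2 and GAR1 in ΔSE12313-b are blue in all 3 clones.

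Set directly against each other, the deletions differed in 9 of the 38 genes, a count no larger than the background of all genes. In ΔE2 against ΔSE12313-b, 1 gene was higher (GAR1) and 8 were lower, where 6.69% of all genes were higher and 19.3% lower, and the median was -0.14 for the group and -0.11 for all genes. The lower genes were RRP12 (log2 -0.71, SE 0.14, adjusted p = 0.00858), NOP2 (log2 -0.58, SE 0.11, adjusted p = 0.00665), NOLC1 (log2 -0.58, SE 0.12, adjusted p = 0.0119), RRN3 (log2 -0.54, SE 0.10, adjusted p = 0.00575), DDX21 (-0.39), TCOF1 (-0.35), NOP10 (-0.27) and PES1 (-0.27, adjusted p of these 4 from 0.0209 to 0.0473). GAR1 was higher by 0.48 ± 0.14 (SE, adjusted p = 0.0368). In all 9 the clones of the deletions did not overlap, but the same held for NHP2, NOP14, RRS1 and UTP4, which were not called. The share of all genes without overlap was not counted. With each library centred, 2 were higher and 4 lower (10.5% and 11% of all genes), the same as with quantile normalization (9.7% and 11.5%) and with FPKM scaled to the reads on coding genes (10.1% and 11.3%), where UTP4 joined GAR1 as higher and RRN3, NOLC1, RRP12 and NOP2 remained lower. Those 4 were also the ones that kept their call when any library was left out. The calls of TCOF1 and PES1 were lost without any 1 of 7 libraries (all but clone 1 of ΔE2 for TCOF1, all but clone 3 of ΔE2 for PES1), those of DDX21 and GAR1 without any 1 of 6, and that of NOP10 without clone 2 of ΔSE12313-b (adjusted p 0.0516 to 0.141).

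Of the 9 genes, 6 lay on chromosome arms whose genes as a whole were shifted in the direct comparison. RRN3 lies on 16p (median of the arm -0.45 relative to all arms in the direct comparison), RRP12, NOLC1 and DDX21 on 10q (-0.36), NOP2 on 12p (-0.29) and GAR1 on 4q (0.46), and UTP4, NOB1 and NIP7, all on 16q (0.29), were the 3 genes with the next highest values after GAR1, none of them called. The shifts of these arms were alike in the 3 clones of a deletion: 10q was at 0.40 to 0.45 in the ΔSE12313-b clones and at 0.04 to 0.09 in the ΔE2 clones, and 16p at -0.51 to -0.38 in ΔE2 and -0.04 to 0.09 in ΔSE12313-b. Centred within arms, 0 members were higher and 0 lower by limma (6.6% and 6.72% of all genes), and none had an unadjusted p under 0.05, which 16.2% and 13.9% of all genes had. The copy number of the arms was not measured. Of the genes with the largest rises against control, NOP56, NOP58, POLR1E and UTP20 lie on arms with medians of -0.05 to 0.09 in both deletions and stood at percentile 86.8 or above of their arm. BOP1 lies on 8q (-0.10 in ΔE2 and -0.02 in ΔSE12313-b) and stood at percentiles 89.1 and 89.9. These genes were picked for their rises, so high percentiles follow from the choice, and the part of the arms was not tested.

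**Figure D4:**
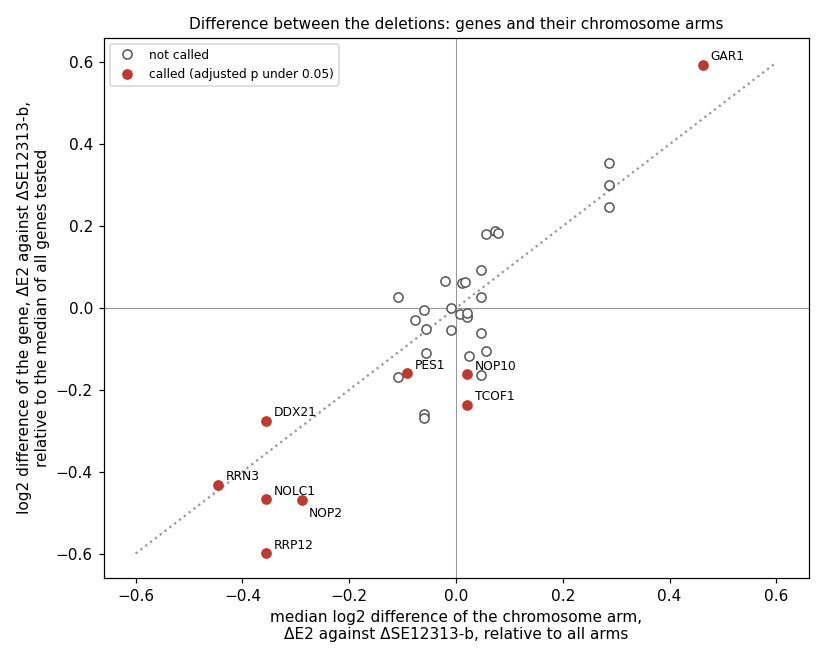
Log2 difference between ΔE2 and ΔSE12313-b of each of the 38 genes relative to the median of all genes (vertical axis) against the median difference of its chromosome arm (horizontal axis), with called genes in red and the dotted line marking equal values. RRN3, NOLC1, DDX21, RRP12, NOP2 and GAR1 lie on the same side of 0 as their arms, which are shifted by 0.29 or more, and TCOF1, NOP10 and PES1 lie at arms with medians of -0.09 to 0.02.

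The assembly factors of snoRNPs rose in 9 of 11 genes in both deletions, with 0 lower in ΔE2 and 1 in ΔSE12313-b, where 34.7% and 43% of all genes rose. With each library centred 4 and 6 of the 11 rose, where 26.6% and 27.7% of all genes did. RUVBL2, an ATPase of the R2TP complex that loads box C/D proteins, had means of 20.3 (controls), 36.98 (ΔE2) and 39.2 FPKM (ΔSE12313-b) and rose (log2 0.85 and 0.94), TGS1 rose by 0.72 and 0.92 and SHQ1, the chaperone of DKC1, by 0.70 and 0.75. Of 52 other small subunit factors, 30 rose and 2 fell in ΔE2 (median 0.32), and 37 rose and 0 fell in ΔSE12313-b (0.55), with the largest mean changes in UTP11 (1.15 and 1.22), IMP3 (0.91 and 1.17) and NOL11 (0.78 and 1.13). Of 62 other large subunit factors, 28 rose and 7 fell in ΔE2 (0.28), and 33 rose and 5 fell in ΔSE12313-b (0.40), with TEX10 (1.34 and 1.37), EBNA1BP2 (1.28 and 1.32) and GRWD1 (1.21 and 1.46) having the largest mean change over both deletions. The nuclear exosome, which trims the ends of rRNA, had 8 rises and 1 fall among 14 genes in ΔE2 and 7 rises and 1 fall in ΔSE12313-b, the latter a share near the 43% of all genes. Centred, 6 and 4 of the 14 rose, where 26.6% and 27.7% of all genes did. EXOSC2 (1.03 and 1.12) had the largest mean change. With each library centred, the counts of rises and falls were 17 and 4 for the small subunit factors in ΔE2 and 24 and 5 in ΔSE12313-b, and 21 and 11 and 21 and 13 for the large subunit factors. On that scale 26.6% of all genes rose and 26.1% fell in ΔE2, and 27.7% rose and 27.3% fell in ΔSE12313-b.

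The other components of RNA polymerase I did not move as a block. Of 15 tested, 6 rose and 3 fell in ΔE2, and 7 rose and 3 fell in ΔSE12313-b, shares near those of all genes. Centred, 5 and 4 rose and 4 fell in each, where 26.6% and 27.7% of all genes rose and 26.1% and 27.3% fell. POLR2L, a small subunit shared by all 3 nuclear polymerases, rose from 18.1 FPKM to 75.9 and 103 (log2 2.06 and 2.502). CD3EAP, a partner of POLR1E, rose by 1.01 and 1.35. TAF1D, a subunit of the promoter factor SL1, fell (-0.51 and -1.40), as did POLR1D (-0.48 and -0.39) and TAF1C (-0.64 and -1.14). Relative to all arms, 11q, the arm of TAF1D, was at 0.16 to 0.17 in the ΔE2 clones and -0.29 to -0.26 in those of ΔSE12313-b. TAF1C lies on 16q (-0.31 in ΔSE12313-b).

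Known targets of MYC outside ribosome biogenesis mostly rose. Of 28 tested, 23 rose and 1 fell in ΔE2 and 26 rose and 0 fell in ΔSE12313-b, with medians of 0.80 and 0.96, where 34.7% and 43% of all genes rose. Centred, 20 and 19 rose and 1 fell in each, where 26.6% and 27.7% of all genes rose and 26.1% and 27.3% fell. TYMS, which makes thymidylate and is also among the S phase markers, rose from 12.6 FPKM to 117 and 122, the transferrin receptor TFRC from 14.0 to 77.2 and 66.3, and LDHA, lactate dehydrogenase, from 106 to 485 and 387. The E-box CACGTG stood in 13 of 26 promoter windows of this list.

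The partners and antagonists of MYC moved both ways, with counts near the background (5 rose and 3 fell of 13 in ΔE2, 6 and 3 in ΔSE12313-b, and centred 5 and 3, and 5 and 4). Of all genes, 34.7% and 43% rose and 19.4% and 16.4% fell. Centred, 26.6% and 27.7% of all genes rose and 26.1% and 27.3% fell. MAX, the obligate partner, rose from 17.3 ± 0.88 FPKM (SD, n = 2) to 24.7 ± 0.86 in ΔE2 (n = 3, log2 0.51, adjusted p = 0.00609) and to 35.5 ± 5.01 in ΔSE12313-b (n = 3, 1.03, adjusted p = 0.000152), and the difference between the deletions passed the test (-0.51, adjusted p = 0.0093). MXI1 and MXD1 compete with MYC for MAX, and both fell. MXI1 went from 9.47 FPKM to 2.78 and 4.96 (log2 -1.73 and -0.92), and MXD1 from 6.74 to 4.02 and 2.90 (-0.74 and -1.20). MNT, another antagonist, fell in ΔE2 (-0.54, adjusted p = 0.0041) and was not called in ΔSE12313-b (-0.22, adjusted p = 0.115). MXD3, an antagonist that is expressed in dividing cells, rose from 0.36 to 1.53 and 2.10 FPKM, MGA rose by 0.85 and 0.89, MYCBP by 1.10 and 0.90, and MLXIP by 0.49 and 0.76. FBXW7, the ligase subunit that marks MYC protein for degradation, was at 7.03 FPKM in the controls, had 0.07 in ΔE2 (adjusted p = 0.679) and fell by 0.50 in ΔSE12313-b (adjusted p = 0.0169). MLX rose in ΔSE12313-b (0.51), and MXD4, TRRAP and ZBTB17 were called in neither deletion. Some of these genes lie on shifted arms. Relative to all arms, 4q (FBXW7) had a median of -0.22 in ΔSE12313-b and 10q (MXI1) of 0.44. The arm of MAX, 14q, was at -0.06, 0.17 and 0.30 in the ΔSE12313-b clones. The part of the arms in these changes was not tested.

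**Figure D5:**
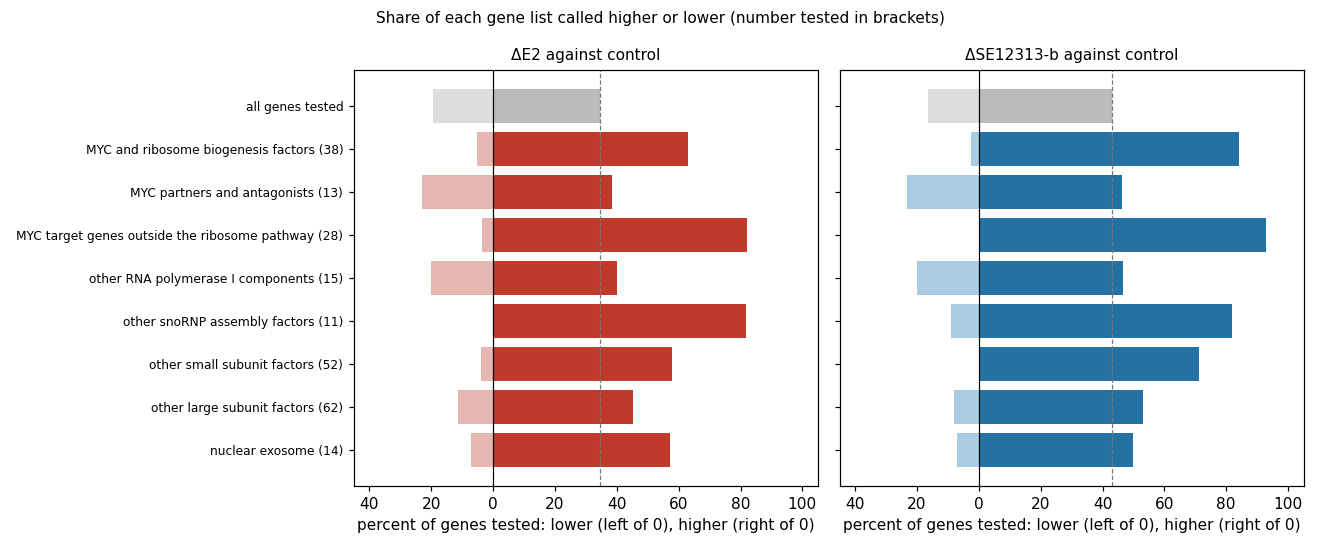
Percent of the genes tested in each list (rows, number in brackets) that were called higher (right of 0) or lower (left of 0) in ΔE2 (left panel) and ΔSE12313-b (right panel) against control, with all genes tested in grey and their share of higher calls as a dashed line (34.7% and 43%). The bars of MYC targets reach the furthest right in both panels, and those of MYC partners and other RNA polymerase I components end near the dashed line.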

How the data were processed

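RNA was sequenced from 8 libraries of EA.hy926 cells (2 control, 3 ΔE2, 3 ΔSE12313-b), grouped by their genotype labels. The authors trimmed reads with Trim Galore 0.4.4 and aligned them with STAR 2.5.4b to GRCh37. The authors deposited FPKM per RefSeq transcript, 65572 transcripts in all, and the tool that made this table, its RefSeq release and its handling of strand are not given in the sources used here. Of these transcripts, 42 without a gene name were left out (at most 0.0158% of reads on 1 line), and the transcript with the highest mean FPKM stood for each gene.

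Genes at or above 0.5 FPKM in 2 or more libraries entered the test on log2(FPKM + 0.1) with limma 3.58.1 (R 4.3.3, trend, 2-sided, all groups in 1 model), with Benjamini-Hochberg adjustment over 13789 genes and a threshold of 0.05. A fold change on this scale understates changes of low genes. The study's own tests used counts and are not used here. FPKM times length gave whole reads for 100% of values checked (within 0.1 read), which gave the depths stated in the report, and voom on these reads was an alternative. The script was tested on simulated data.

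Values of each library are given for MYC, for up to 3 called members of a role with the largest change, and for members whose calls differ between the deletions. Of each pathway list, up to 3 genes called in both deletions with the largest mean change are named, and every tested partner of MYC may be named. Of the other RNA polymerase I components, POLR1D and TAF1C are named too. The members and lists were chosen with earlier results of these data known. Alternatives covered pseudocounts, filters, scaling, model, transcript and each library left out. The scaling to coding reads, the centring within 40 chromosome arms (each with at least 50 genes) and the ratios between genes were chosen after the values were seen. Exonic overlaps are from GENCODE on GRCh37 and promoters from RefSeq on GRCh38.p14, with no conversion between builds.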

Additional observations from a re-analysis of the deposited data

Results flagged for a closer look

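For 9 of the 38 genes the change differed between the deletions by the direct test (limma, ΔE2 minus ΔSE12313-b on the log2 scale, 3 clones each). Of these, 1 was higher and 8 lower in ΔE2, where 6.69% of all genes were higher and 19.3% lower, so the count is no larger than the background. Centred within chromosome arms, 0 were called by limma and 0 had an unadjusted p under 0.05. RRN3 (-0.54) and GAR1 (0.48) differed with a call against control in 1 deletion, a fall of RRN3 in ΔE2 and of GAR1 in ΔSE12313-b. RRP12 (-0.71), NOP2 (-0.58), NOLC1 (-0.58) and DDX21 (-0.39) rose in ΔSE12313-b and were not called in ΔE2. TCOF1 (-0.35), NOP10 (-0.27) and PES1 (-0.27) rose in both, and less in ΔE2. Their arms had medians of -0.45 (16p), -0.36 (10q), -0.29 (12p) and 0.46 (4q) for the first 6 genes, and of 0.02 (5q and 15q) and -0.09 (22q) for the last 3.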

How the results depend on the processing

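The rises against control were counted as 24 (ΔE2) and 32 (ΔSE12313-b). In ΔE2 they became 14 with quantile normalization, 15 at 1.5-fold and 4 at 2-fold. In ΔSE12313-b they became 20 with centring, 13 with quantile normalization, 19 per read on coding genes, 19 within chromosome arms and 5 at 2-fold. The 2 falls in ΔE2 became 1 with the replicate block, no trend, the longest transcript, voom or arm centring, and 0 at 1.5-fold, 2-fold or adjusted p under 0.01. The 1 fall in ΔSE12313-b became 2 with centring or coding reads, 5 with quantile normalization, and 0 with no trend, only the groups compared, 1.5-fold, 2-fold or p under 0.01. In the direct comparison the 1 higher gene became 2 with centring, quantile normalization or coding reads, and 0 with FPKM above 0, no trend, only the groups compared, arm centring, 1.5-fold, 2-fold or p under 0.01. The 8 lower genes became 4 with centring, quantile normalization, coding reads or the replicate block, 5 with no trend or only the groups compared, 3 at p under 0.01, 1 at 1.5-fold, and 0 within arms or at 2-fold.

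Leaving out 1 library gave 17 to 28 rises and 0 to 2 falls in ΔE2, 27 to 32 rises and 0 to 1 falls in ΔSE12313-b, and 0 to 1 higher and 4 to 7 lower in the direct comparison. Over all alternatives, 120 of 2394 values of members had another sign than in the main fit, in 37 pairs of member and comparison. In 11 of the 120 the gene was called in the main fit or in the alternative, and only those 11 are listed here. With quantile normalization the sign turned for POLR1B (-0.021), RRN3 (-0.27), NOB1 (-0.40) and GNL3 (-0.33) in ΔSE12313-b and for NCL in ΔE2 (-0.061). Per read on coding genes it turned for POLR1B in ΔSE12313-b (-0.018). Within arms it turned for POLR1B (-0.052), DDX21 (-0.21) and RRP12 (-0.13) in ΔSE12313-b and for RRN3 (0.035) and DDX21 (0.11) in the direct comparison. The cause was not tested.

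Libraries of the same number did not deviate together (correlations 0.107, -0.0804 and -0.073 between the deletions), so the numbers do not pair the samples. With the replicate block 22 genes rose in ΔE2 and 31 in ΔSE12313-b. With 2 control libraries, changes near the threshold depend on both of them.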
